A study of Homo sapiens with 58 samples.

Results

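EGF was given together with the EGFR inhibitor gefitinib to HaCaT-EGFR cells, and their transcripts were set against those of the same line left starved without EGF or inhibitor. HaCaT is an immortalised human keratinocyte line, and HaCaT-EGFR carries forced expression of EGFR. All 5 arrays compared belong to processing batch 6 and were taken by their labels: 2 arrays with EGF and gefitinib (1 at 4 h and 1 at 8 h) and 3 starved arrays (2 at 4 h and 1 at 8 h). They are 5 of the 58 Affymetrix U133 Plus 2.0 arrays of the series, which span 18 conditions and 6 processing dates. Both groups were kept without serum, and both carry the EGFR transgene. The gefitinib dose, the timing of the inhibitor and whether HaCaT-EGFR is a clone or a pool are not given in the sources used here. Nothing says that the arrays of a group came from separate cultures, so p-values measure a spread between arrays that may be technical. That spread was pooled over all 58 arrays within condition and date, so it is not that of these 5 arrays alone. In the main fit it also holds differences between 4 h and 8 h, where both times share a group. Values are log2 expression levels of 19775 genes, each read from 1 probe set, and every difference is a log2 difference with the starved mean subtracted.

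EGFR is a receptor tyrosine kinase that binds EGF, TGFA, HBEGF, EREG and related ligands. Its kinase activates the RAS-RAF-MEK-ERK cascade and the PI3K-AKT pathway. ERK switches on early genes, among them transcription factors, its own phosphatases and more EGFR ligands, so keratinocytes can keep the receptor active with ligands they make themselves. AKT holds FOXO transcription factors out of the nucleus, and FOXO target genes rise where AKT is quiet. Gefitinib occupies the ATP pocket of the EGFR kinase. The comparison therefore asks whether cells with EGF and a blocked receptor return to the starved level or pass beyond it.

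The 3 starved arrays were less alike than the gefitinib arrays, and this touches each result that follows. The gefitinib arrays differed by more than 1 log2 unit in 15 genes, with a correlation of 0.9959 over all genes. Starved 4 h replicates 1 and 2 differed by that much in 295 genes, starved 4 h replicate 1 and the 8 h array in 495 genes, and starved 4 h replicate 2 and the 8 h array in 135 genes. KRT15, a basal keratin, stood at 11.74 and 11.99 in the gefitinib arrays, against 13.51, 11.49 and 11.14 in the starved arrays (4 h replicate 1, 4 h replicate 2 and 8 h, the order used throughout). KRT1, a keratin of suprabasal cells, stood at 5.63 and 5.70 with gefitinib and at 3.26, 5.63 and 5.33 in starved cells. Starved 4 h replicate 1 shared its high KRT15 and low KRT1 with the arrays of EGF with U1026 (13.54 and 3.63), EGF with LY294002 (13.30 and 3.30) and EGF 4 h replicate 1 (13.37 and 3.65), whereas both gefitinib arrays lay with the remaining starved arrays. KRT15 and KRT1 were chosen after their values were seen.

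**Figure D1:**
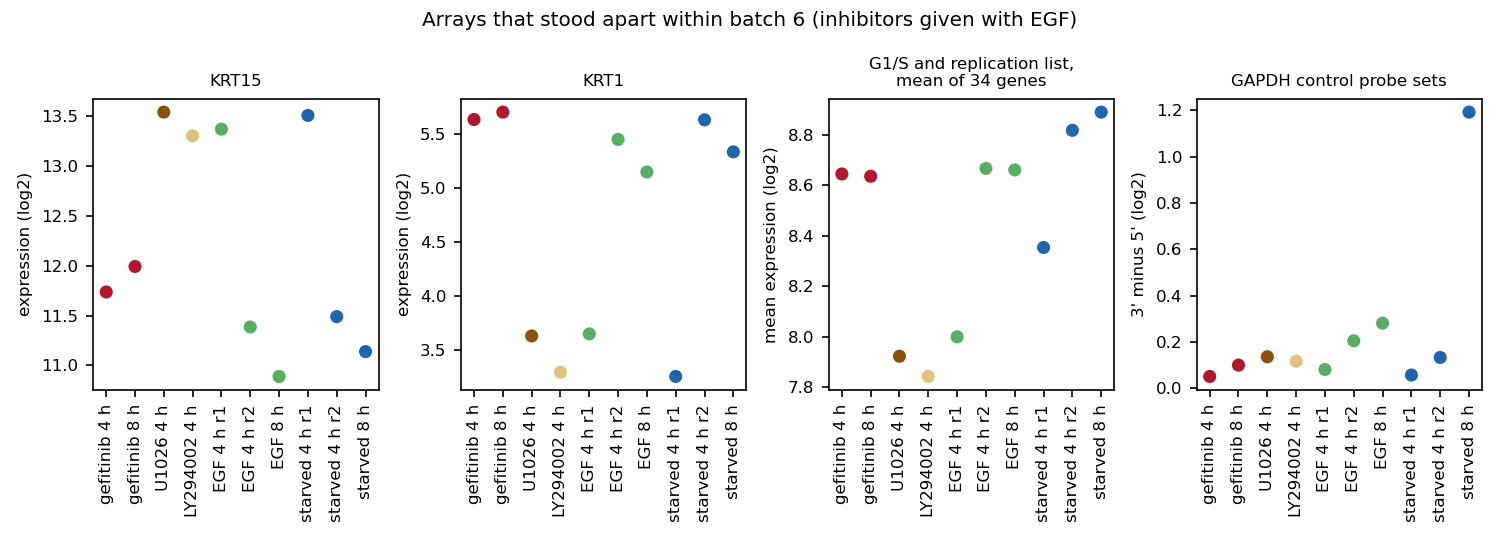
Expression of KRT15 and KRT1, the mean of 34 G1/S and replication genes, and the 3' minus 5' difference of the GAPDH control probe sets (all log2) in 10 HaCaT-EGFR arrays of batch 6; each point is 1 array. Starved 4 h replicate 1 is at 13.51 for KRT15 against 11.74 and 11.99 with gefitinib, and the starved 8 h array is at 1.192 in the GAPDH control.

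Cell cycle genes divided the starved arrays in the same way. The mean over 34 measured G1/S and replication genes was 8.64 in both gefitinib arrays to 2 decimals (8.644 and 8.635), against 8.353, 8.817 and 8.889 in the starved arrays. Of these 34 genes, 32 were lowest in replicate 1 among the starved arrays. The starved 8 h array stood apart in the control probe sets instead. Its 3' minus 5' difference was 1.192 for GAPDH and 5.864 for ACTB, against 0.051 to 0.281 and 3.834 to 4.694 in the other 13 HaCaT-EGFR arrays of the batch. A larger 3' minus 5' difference is a sign of shorter or less complete target. The part of these 2 arrays in the results was not tested beyond leaving each out.

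No gene passed the test between cells with EGF and gefitinib and starved cells. With limma, 0 of 19775 genes (0%) had an adjusted p under 0.05, and 938 genes (4.74%) had an unadjusted p under 0.05, of which 301 (1.52%) were higher and 637 (3.22%) lower with gefitinib. The smallest adjusted p was 0.0722. The median difference over all genes was -0.04, and the median standard error was 0.184. The 95% interval of the difference lay wholly within 1 log2 unit of 0 for 18808 genes (95.1%) and within 0.5 for 9360 genes (47.3%). A change of more than a factor of 2 was thus outside the interval for most genes, and smaller changes were within it for most. Both gefitinib arrays lay above all 3 starved arrays in 1451 genes (7.34%) and below them in 2716 genes (13.7%), and these shares are the background for the counts of non-overlapping members below.

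As a group, genes that respond to EGF had medians near the starved level when gefitinib was present, though many single genes lay outside the starved range. The responsive genes were read from 4 EGF and 4 starved HaCaT-EGFR arrays of 2 other processing dates, which share no array with batch 6. On those dates 768 genes changed with EGF (3.88%), of which 395 rose (2.00%) and 373 fell (1.89%). In batch 6 itself 40 genes rose with EGF alone (0.202%) and 11 fell (0.0556%), or 22 and 12 with each array centred on its median, and 58 and 25 with same-numbered arrays paired. In batch 6 the 395 EGF-induced genes had a median difference from starved cells of -0.05 with EGF and gefitinib and of 0.34 with EGF alone. The 373 EGF-repressed genes had a median of 0.01 with EGF and gefitinib and of -0.35 with EGF alone. Both of these batch 6 comparisons use the same 3 starved arrays. Directly against EGF alone in batch 6, 36 of the 395 fell and none rose with gefitinib, and 21 of the 373 rose and none fell, where 50 (0.253%) and 32 (0.162%) of all genes did so. Both gefitinib arrays lay below every starved array in 71 of the 395 (18%, against 13.7% of all genes) and above in 36 (9.11%, against 7.34%). For the 373, 61 lay above (16.4%, against 7.34%) and 34 below (9.12%, against 13.7%). Without starved 4 h replicate 1 the medians were -0.12 and 0.05, and 188 of the 395 lay below both remaining starved arrays, where 24.1% of all genes did. Over all settings the medians ran between -0.12 and 0.01 for the 395 and between -0.04 and 0.13 for the 373.

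**Figure D2:**
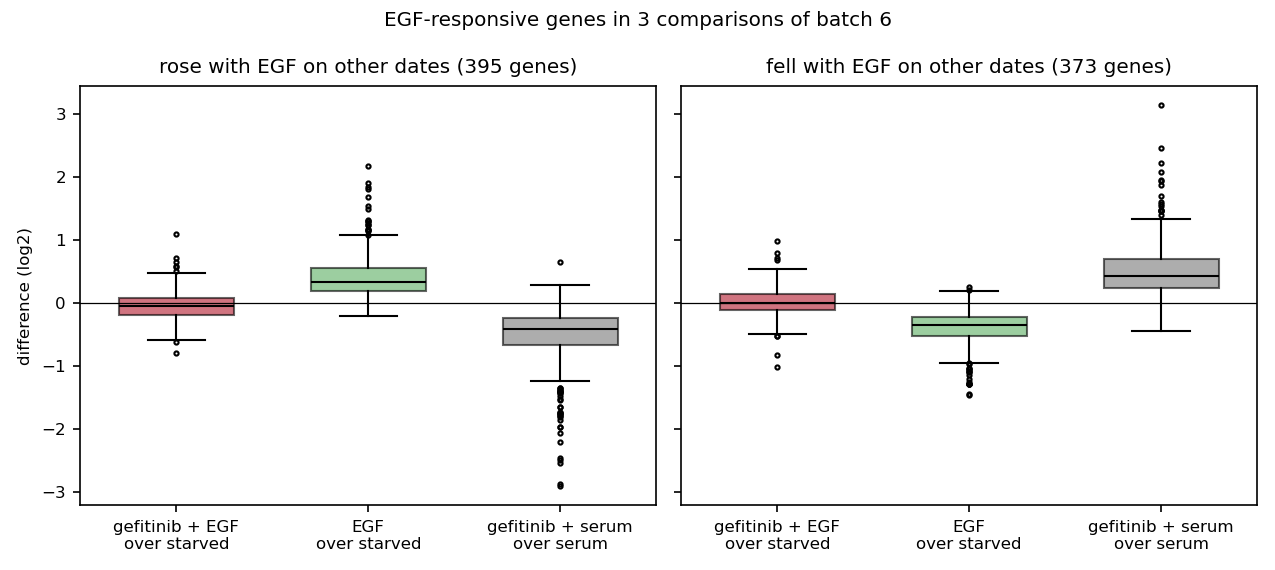
Log2 differences of genes that rose (left, 395) or fell (right, 373) with EGF on other dates, in 3 comparisons within batch 6: EGF with gefitinib over starved, EGF over starved, and gefitinib with serum over serum. Boxes show the quartiles, the line the median, whiskers 1.5 times the box and points the genes beyond; the medians of EGF with gefitinib are -0.05 and 0.01.

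Some single EGF-responsive genes lay within or next to the starved range. HAS2, a hyaluronan synthase, had 8.49 and 8.17 with gefitinib, against 7.83, 9.00 and 8.49 in starved cells, and 10.75, 9.99 and 10.02 with EGF alone (4 h replicate 1, 4 h replicate 2 and 8 h). Its gefitinib arrays fell inside the starved range, a difference of -0.11 ± 0.35 (SE) from starved cells, and its fall against EGF alone was -1.93 ± 0.35 (limma adjusted p = 0.0066). CDCP1, a transmembrane protein of epithelial cells, had 8.70 and 8.65 with gefitinib, against 8.60, 8.77 and 8.71 in starved cells. Its difference was -0.02 with a 95% interval of -0.29 to 0.26. Over all settings, which include other probe sets, the difference of CDCP1 ran between -0.09 and 0.755. GPAT3, an enzyme of triglyceride synthesis, had 8.98 and 9.13 with gefitinib and 8.68, 9.22 and 9.16 in starved cells, against 9.85 to 10.35 with EGF alone. Among EGF-repressed genes, ZNF488, a zinc finger gene, had 7.12 and 7.19 with gefitinib and 7.10, 6.98 and 7.10 in starved cells, against 5.50 to 6.12 with EGF alone. TMCC2 had 7.00 and 7.25 with gefitinib and 7.38, 6.89 and 7.14 in starved cells.

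Other genes that rose with EGF alone in batch 6 stood above the starved mean with gefitinib without passing the test. AKAP12, a scaffold protein for kinases, had 9.99 and 9.75 with gefitinib, against 8.35, 8.89 and 9.10 in starved cells and 10.65 to 10.76 with EGF alone. Both gefitinib arrays lay above every starved array and below every EGF array. The difference from starved cells was 1.09 ± 0.32 (SE) and did not pass (limma adjusted p = 0.863). The interleukin receptor gene IL13RA2 had 3.92 and 3.61 with gefitinib and 2.74, 3.73 and 3.04 in starved cells, so the groups overlapped, and it had 5.58 to 6.42 with EGF alone. For the stromelysin gene MMP10 the values were 5.58 and 5.17 with gefitinib and 4.81, 4.92 and 5.04 in starved cells, against 6.79 to 7.39 with EGF alone.

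None of the 5 measured EGFR ligands passed the test, 0 lay outside the starved range in either direction, and their median difference was -0.18. Without starved 4 h replicate 1 the median was -0.27, 3 of the 5 lay below both remaining starved arrays (24.1% of all genes did) and the difference of HBEGF was -1.04. Without starved 4 h replicate 2 the median was -0.11, and with that array as the sole reference -0.40. Over all settings the difference of HBEGF ran between -1.04 and -0.35. HBEGF, a membrane-bound ligand shed by proteases, had 7.54 and 7.29 with gefitinib, against 7.36, 8.15 and 8.74 in starved cells and 8.83 to 9.09 with EGF alone. The gefitinib arrays were level with starved 4 h replicate 1 and below the other starved arrays. EREG, or epiregulin, had 8.31 and 8.34 with gefitinib and 8.13, 8.98 and 8.96 in starved cells. TGFA had 8.31 and 8.25 with gefitinib and 8.20, 8.52 and 8.58 in starved cells, a difference of -0.15 with a 95% interval of -0.52 to 0.21. Against EGF alone all 3 of these ligands fell, HBEGF by 1.53, EREG by 1.28 and TGFA by 1.17 on the log2 scale (limma adjusted p = 0.029, 0.0066 and 0.0011). Another TGFA probe set, that with the largest SD, gave a difference from starved cells of 0.42. The EGF gene itself (3.8 and 3.34 with gefitinib, 3.73, 3.97 and 3.53 in starved cells) and BTC (5.27 and 5.66 with gefitinib, 5.07, 5.19 and 5.51 in starved cells) were at low signal.

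Receptors and feedback inhibitors had a median near the starved level. EGFR has 9 probe sets, whose differences ran between -0.31 and 0.31, none past the threshold. The brightest read 9.84 and 9.81 with gefitinib and 9.71, 9.63 and 9.53 in starved cells, so the groups did not overlap. Nor did they in the next brightest (9.41 and 9.36, against 9.15, 9.11 and 8.96) and in the one after it (8.33 and 8.41, against 8.27, 8.11 and 7.96). The transgene and the endogenous gene cannot be told apart as sources. In the starved HaCaT-EGFR arrays the brightest probe set was close to the single starved HaCaT-vector array of the batch (9.46), although the line carries forced EGFR expression. Higher than in that array were 2 dimmer probe sets, one (7.27, 7.26 and 7.47 in starved HaCaT-EGFR cells, against 6.69 in HaCaT-vector) and another (6.96, 7.17 and 7.30, against 6.53), with no test of 1 vector array. ERBB3, the kinase-impaired partner receptor, had 9.02 and 8.71 with gefitinib and 8.82, 8.35 and 8.5 in starved cells. ERRFI1, which binds and inhibits the EGFR kinase, had 10.62 and 10.73 with gefitinib and 10.21, 11.19 and 11.39 in starved cells. It rose with EGF on the other dates and fell by 1.2 against EGF alone in batch 6 (limma adjusted p = 0.012). Over the 15 measured genes of this group the median difference was 0.05. Above every starved array were 3 genes (20%, against 7.34% of all genes), and below were 2 (13.3%, against 13.7%).

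ERK-induced genes leaned below the starved level without passing the test. Of 37 measured members, 0 rose and 0 fell, 32 had a difference below 0, and the median was -0.27 against -0.04 over all genes. Both gefitinib arrays lay below all starved arrays in 6 members (16.2%, against 13.7% of all genes) and above them in 0. The 6 were PHLDA1, PHLDA2, PLAU, PLAUR, SPRY2 and IER3. PHLDA1, a pleckstrin homology-like protein induced by growth factors, had 10.81 and 10.92 with gefitinib, against 11.34, 11.78 and 11.35 in starved cells, a difference of -0.62 ± 0.27 (SE). SPRY2, an inhibitor of RAS-ERK signalling, had 7.70 and 7.77 with gefitinib, against 7.80, 8.42 and 8.24 in starved cells. Its difference was -0.42 ± 0.16 (SE), with a limma unadjusted p of 0.012 and an adjusted p of 0.987.

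In several ERK-induced genes the starved arrays lay on both sides of the gefitinib arrays. DUSP6, the cytoplasmic phosphatase that switches ERK off, had 9.45 and 9.70 with gefitinib, against 9.22, 10.21 and 10.55 in starved cells. SPRY4 had 5.81 and 5.96 with gefitinib, against 5.49, 6.83 and 6.52. FOSL1, an AP-1 subunit, had 7.34 and 7.33 with gefitinib, against 6.64, 8.04 and 8.37. In each of these, starved 4 h replicate 1 was the lowest of the 5 arrays and the remaining starved arrays were the highest. DUSP4, a nuclear phosphatase, followed suit, with 8.19 and 8.42 against 7.61, 8.96 and 9.07. MYC had 8.03 and 8.26 with gefitinib and 8.16, 8.90 and 8.82 in starved cells, so its gefitinib arrays lay around replicate 1 and below the remaining starved arrays. Over the list, 27 of 37 members were lowest in replicate 1 among the starved arrays, where 6475 of all 19775 genes were.

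**Figure D3:**
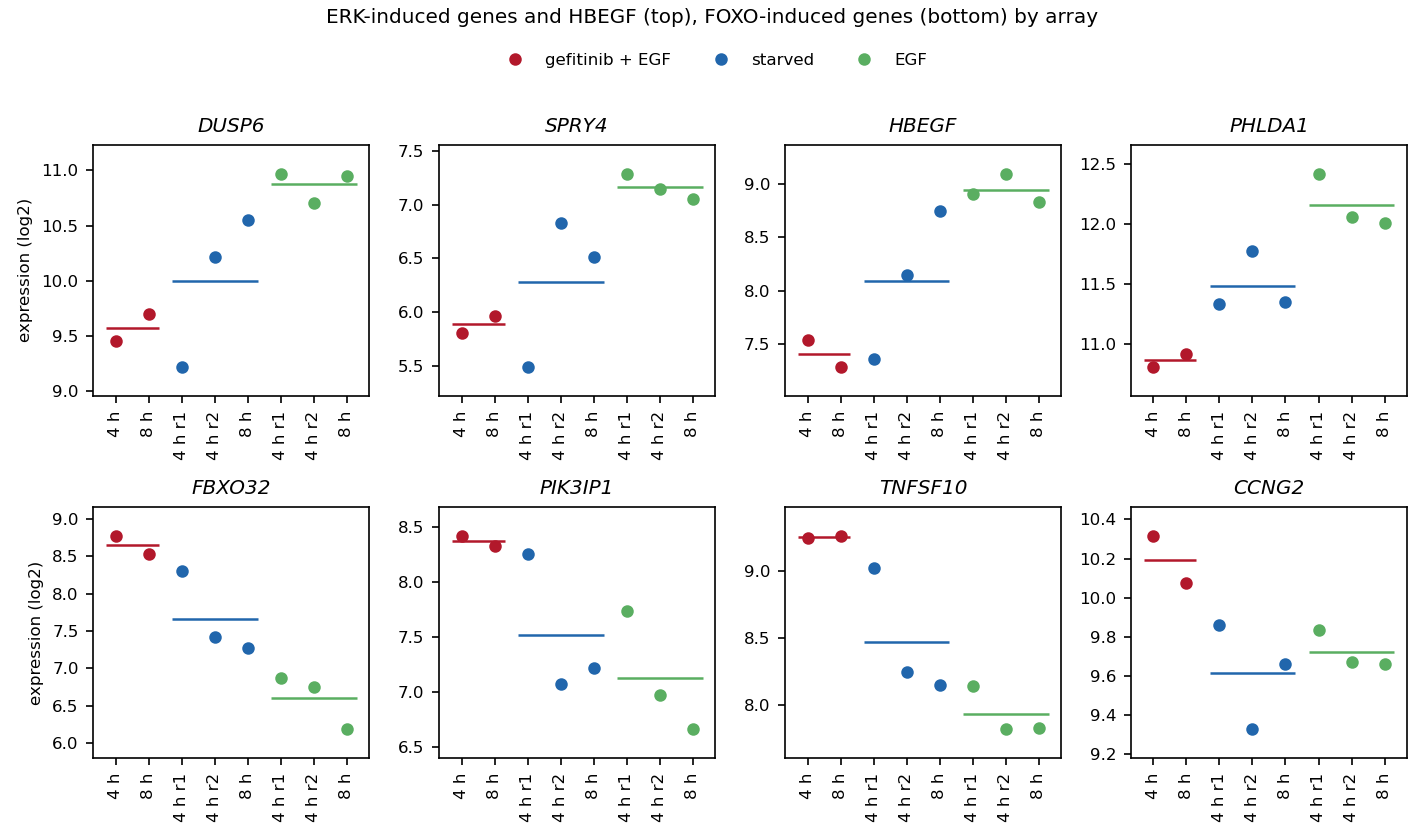
Log2 expression of 3 ERK-induced genes and HBEGF (top) and 4 FOXO-induced genes (bottom) in each array with gefitinib and EGF, starved, or with EGF alone; r1 and r2 are replicates, and lines are group means. In DUSP6, SPRY4 and HBEGF the starved 4 h replicate 1 array lies at the gefitinib level or below, while the other starved arrays lie above it.

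Leaving out starved 4 h replicate 1 widened these differences. The median of the 37 members became -0.44 and 22 of them lay below both remaining starved arrays, where 24.1% of all genes did. The difference of DUSP6 was then -0.81 ± 0.25 (SE), of SPRY4 -0.79 ± 0.26 and of the receptor kinase gene EPHA2 -0.81 ± 0.22. No gene passed the limma threshold without it either (at an unadjusted p under 0.05, 519 genes or 2.62% were higher and 981 or 4.96% lower), and the adjusted p of DUSP6 was 0.344. Leaving out the starved 8 h array moved the median the other way, to -0.10. Against EGF alone 9 of the 37 fell, DUSP4 by 1.56, DUSP6 by 1.30 and PHLDA1 by 1.29 on the log2 scale.

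Among immediate-early transcription factor genes, the gefitinib arrays of EGR1, FOS and FOSB overlapped the starved range. EGR1, a zinc finger factor, was bright in every array, with 13.29 and 13.64 with gefitinib and 13.63, 13.63 and 13.89 in starved cells. FOS had 6.75 and 7.21 with gefitinib and 7.54, 6.74 and 7.18 in starved cells, and FOSB 8.37 and 8.88 against 9.23, 8.72 and 9.61. Without starved 4 h replicate 1 the differences were -0.30 for EGR1, 0.02 for FOS, -0.54 for FOSB and -0.58 for EGR3. CCND1, the cyclin that drives G1 entry, had 9.99 and 10.12 with gefitinib and 9.94, 10.07 and 9.87 in starved cells, a difference of 0.09. The motifs below were searched on both strands in the 250 bases before each gene's first listed start (RefSeq, GRCh38.p14): ETS CCGGAAGT, AP-1 TGACTCA, the serum response element (SRE), CRE TGACGTCA, FOXO TGTTTAC and E-box CACGTG. Of the 39 listed ERK-induced genes, 26 matched a promoter, of which 1 held this exact form of the SRE (9 of 27305 promoters, or 0.033%). The CRE was in 3 (1.77% of all promoters), the E-box in 3 (6.49%), the AP-1 motif in 2 (4.16%), the FOXO motif in 1 (2.98%) and the ETS motif in 0 (3.64%). The SRE found in that form, bound by serum response factor, was that of EGR1. It is shown because EGR1 did not pass against starved cells (-0.25) but fell with gefitinib in serum (-1.81). Only the searched form is in capitals, on chr5:138465324-138465423, plus strand:
EGR1: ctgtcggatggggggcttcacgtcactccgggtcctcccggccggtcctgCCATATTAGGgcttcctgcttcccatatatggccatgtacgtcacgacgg

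FOXO-induced genes leaned above the starved level. Of 31 measured members 0 passed the test, 30 had a difference above 0, and the median was 0.33 against -0.04 over all genes. Both gefitinib arrays lay above all starved arrays in 12 members (38.7%, against 7.34% of all genes) and below them in 0, and 11 had an unadjusted p under 0.05 in the higher direction, against 1.52% of all genes. The smallest adjusted p among them was 0.9445. FBXO32, a ubiquitin ligase subunit of muscle atrophy, had 8.77 and 8.53 with gefitinib, against 8.29, 7.42 and 7.27 in starved cells and 6.19 to 6.88 with EGF alone. YPEL3, a gene linked to growth arrest, had 7.53 and 7.52 with gefitinib, against 7.00, 5.91 and 6.37 in starved cells. CCNG2, a cyclin linked to cell cycle arrest, had 10.32 and 10.07 with gefitinib, against 9.86, 9.33 and 9.66.

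The starved spread was wide in this group too. PIK3IP1, a negative regulator of PI3K, had 8.42 and 8.32 with gefitinib and 8.26, 7.07 and 7.22 in starved cells, so replicate 1 was close to the gefitinib arrays. TNFSF10, the death ligand TRAIL, had 9.25 and 9.27 with gefitinib and 9.02, 8.24 and 8.15 in starved cells. TXNIP, the thioredoxin-interacting protein, had 11.84 and 11.82 with gefitinib and 9.73, 11.41 and 11.35 in starved cells, and here replicate 1 was the low one. Among the starved arrays 22 of the 31 members were highest in replicate 1. Without that array the median was 0.45, 25 members lay above both remaining starved arrays (17.3% of all genes did), and the difference of PIK3IP1 was 1.23 ± 0.32 (SE). Leaving out the array in which most members were highest lowers the starved mean, so this rise was built in. Over all settings the median was lowest, at 0.24, without the gefitinib 8 h array. In KLHL24, HBP1 and YPEL5 the groups overlapped through replicate 1 (YPEL5 11.59 and 11.47 with gefitinib, against 11.62, 10.5 and 10.76), and BNIP3, a mitophagy receptor, was the member with a difference below 0 (-0.19).

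Against EGF alone 5 of the 31 rose with gefitinib, FBXO32 by 2.04 ± 0.38 (SE) and TNFSF10 by 1.33 ± 0.28 (limma adjusted p = 0.0066 and 0.020), together with CDKN1B, GADD45A and SESN1, and 8 of the 31 fell with EGF on the other dates. CDKN1B, the CDK inhibitor p27, had 9.72 and 9.69 with gefitinib and 9.64, 9.11 and 9.70 in starved cells. GADD45A, a stress sensor, had 11.68 and 11.81 with gefitinib and 11.39, 11.53 and 11.72 in starved cells. TSC22D3 had 11.36 and 11.62 with gefitinib and 12.07, 10.71 and 11.38 in starved cells, against 9.77 to 10.23 with EGF alone. The E-box was found in 4 of the 28 members with a promoter (14.3%, against 6.49% of all 27305 promoters). The FOXO motif was found in 4 of the 28 as well (14.3%, against 2.98%). Of these 4, the promoters of TXNIP, HBP1 and BCL2L11 are shown, because these members span the range of differences (1.00, 0.34 and 0.12), with the motif on the reverse strand in capitals. They lie on chr1:145996654-145996753 (minus strand), chr7:107168780-107168879 (plus strand) and chr2:111120664-111120763 (plus strand):
TXNIP: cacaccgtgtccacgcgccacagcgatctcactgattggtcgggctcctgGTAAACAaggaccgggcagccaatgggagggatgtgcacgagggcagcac
HBP1: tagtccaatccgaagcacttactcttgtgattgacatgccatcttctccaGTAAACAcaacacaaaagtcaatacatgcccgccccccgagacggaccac
BCL2L11: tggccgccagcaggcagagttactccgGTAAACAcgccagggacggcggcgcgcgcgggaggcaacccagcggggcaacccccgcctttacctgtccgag

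**Figure D4:**
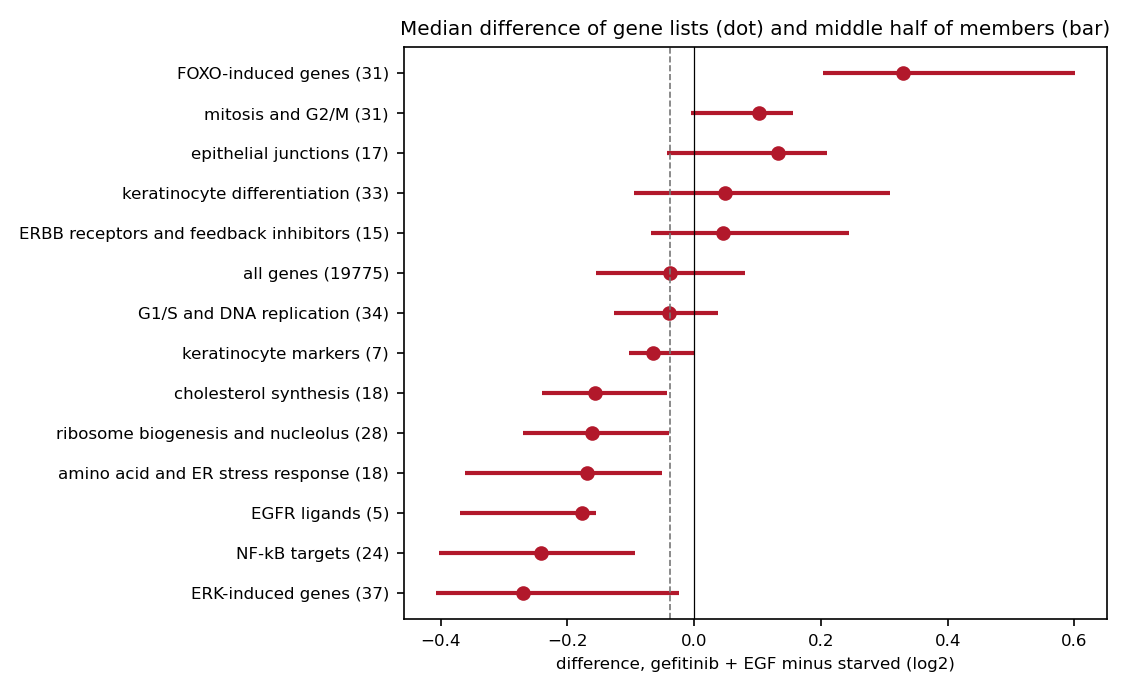
Median log2 difference (dot) between cells with EGF and gefitinib and starved cells, with the middle 50% of members (bar), for 13 gene lists and all genes; the number of measured genes is in brackets and the dashed line marks the median of all genes. FOXO-induced genes have the highest median shown (0.33) and ERK-induced genes the lowest (-0.27).

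Both interleukin-1 genes were among the 4 genes more than 1 log2 unit below the starved mean. IL1A, an alarmin of keratinocytes, had 5.91 and 6.88 with gefitinib, against 7.17, 8.04 and 8.18 in starved cells and 8.26 to 8.61 with EGF alone. Both gefitinib arrays were below every starved array, and the difference of -1.40 ± 0.35 (SE, 95% interval -2.11 to -0.69) did not pass (limma adjusted p = 0.570). It passed only with the times matched (-1.50, adjusted p = 0.038). IL1B had 7.69 and 7.95 with gefitinib, against 8.98, 8.68 and 8.97 in starved cells, a difference of -1.05 ± 0.27 (SE). Against EGF alone IL1A fell by 1.98 and IL1B by 1.2. The promoter of IL1A held the AP-1 motif next to its start, on chr2:112784494-112784593 (minus strand), shown with the motif in capitals because IL1A had the largest difference of all genes:
IL1A: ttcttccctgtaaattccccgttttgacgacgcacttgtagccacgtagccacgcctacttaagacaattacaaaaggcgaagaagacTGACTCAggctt

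NF-kB targets leaned below the starved level. Of 24 measured members, IL1A and IL1B included, 0 passed, 23 had a difference below 0, the median was -0.24, and both gefitinib arrays lay below every starved array in 10 (41.7%, against 13.7% of all genes) and above in 0. CXCL1, a neutrophil-attracting chemokine, had 7.34 and 7.49 with gefitinib, against 7.77, 8.12 and 8.26 in starved cells and 9.07 to 9.47 with EGF alone. CXCL8 had 8.96 and 8.71 with gefitinib, level with the lowest of the starved arrays (8.72, 9.34 and 9.16), and 9.83 to 10.68 with EGF alone. CXCL3 had 7.03 and 7.38 with gefitinib, against 6.84, 7.47 and 7.79 in starved cells. TNF had 4.64 and 4.61 with gefitinib, against 5.50, 5.0 and 4.92. Of the 24, 6 fell against EGF alone, namely IL1A, IL1B, CXCL1, CXCL2, CXCL3 and CXCL8. Without starved 4 h replicate 1 the list's median was -0.24 as well.

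Among all genes 10 had a difference above 1 and 4 below -1, and the following were chosen from the extremes after their values were seen. ADGRG2, an adhesion G protein-coupled receptor, had 4.88 and 4.57 with gefitinib, against 3.6, 3.54 and 3.31 in starved cells and 3.8 to 4.06 with EGF alone. Both gefitinib arrays were above every starved and EGF array, with a difference of 1.24 ± 0.22 (SE, 95% interval 0.79 to 1.70). Its limma adjusted p of 0.0722 was the smallest of all genes. These values of ADGRG2 were at low signal, below the median of every one of these arrays (5.05 to 5.13). PLAC8 had 9.99 and 10.08 with gefitinib, against 8.72, 9.16 and 8.98 in starved cells. PIM1, a serine/threonine kinase, had 10.01 and 9.95 with gefitinib, against 9.26, 9.19 and 9.08, and SRGAP2 had 5.57 and 4.79 against 3.99, 4.28 and 3.90. Of these, SRGAP2, whose starved values were at low signal too, passed against EGF alone (1.38, limma adjusted p = 0.0066), and PLAC8 and PIM1 did not.

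Lower with gefitinib were SLC16A14 (7.35 and 7.02 with gefitinib, 8.34, 7.84 and 8.45 in starved cells), a member of the monocarboxylate transporter family, and DDIT4 (12.05 and 11.98 with gefitinib, 13.13, 12.52 and 13.06 in starved cells), an inhibitor of mTORC1 induced by stress. SLC16A14 was also low with EGF alone (6.79 to 7.00), where it fell against starved cells (-1.29, adjusted p = 0.0058). DDIT4 belongs to the amino acid and ER stress list, in which 5 of 18 members lay below every starved array (27.8%, against 13.7% of all genes). Among them was CHAC1 (5.89 and 5.26 with gefitinib, 6.30, 6.32 and 6.85 in starved cells), an enzyme that degrades glutathione. That list's median was -0.17, and 0.06 with starved 4 h replicate 2 as the sole reference. UCP2, a mitochondrial carrier, had 5.39 and 5.55 with gefitinib, against 6.58, 6.13 and 6.00.

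**Figure D5:**
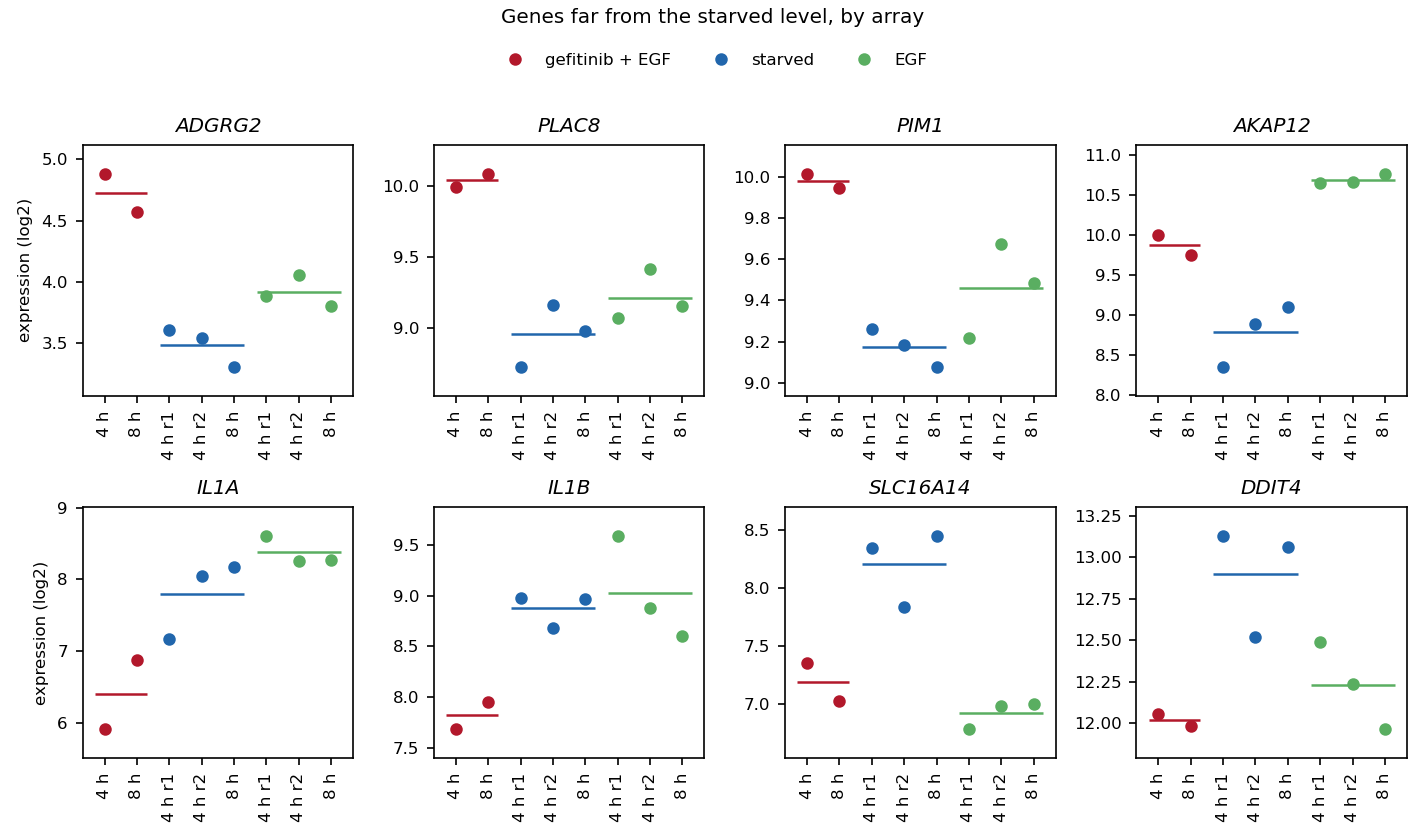
Log2 expression of 8 genes far from the starved level in the arrays with gefitinib and EGF, starved, and with EGF alone; r1 and r2 are replicates, and lines are group means. ADGRG2, PLAC8 and PIM1 are higher in both gefitinib arrays than in any other array shown, and IL1A is at 5.91 and 6.88 with gefitinib against 7.17 or more in starved cells.

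In the remaining lists 0 genes passed as well. Ribosome biogenesis genes had a median of -0.16, with 6 of 28 below every starved array (21.4%, against 13.7% of all genes). BYSL, needed for the small ribosomal subunit, was 0.47 below the starved mean. Cholesterol synthesis genes had a median of -0.16, with 4 of 18 below every starved array (22.2%, against 13.7%). Keratinocyte differentiation genes had a median of 0.05 over 33 members, with 3 above every starved array (9.09%, against 7.34% of all genes). These were KRT1, SPRR1A and SBSN (5.05 and 5.1 with gefitinib, 3.73, 4.73 and 4.42 in starved cells). KRT1 and SBSN both had their lowest starved value in 4 h replicate 1. Glucocorticoid-induced genes had a median of 0.16, with 5 of 12 above every starved array (41.7%, against 7.34% of all genes). Mitosis genes had a median of 0.10, and of -0.10 without starved 4 h replicate 1, so the direction rested on that array. The 7 measured keratinocyte markers were bright in all 5 arrays, with means over the list of 10.99 and 11.06 with gefitinib and 11.17, 10.91 and 11.14 in starved cells, and 0 passed. Fibroblast markers were at low signal but leaned upward, with means over 10 genes of 5.01 and 5.13 with gefitinib, against 4.84, 4.89 and 4.94 in starved cells. Their median difference was 0.19, with 4 of 10 above every starved array (40%, against 7.34% of all genes) and 2 below (20%, against 13.7%). COL3A1, a fibrillar collagen gene on that list chosen after its values were seen, had 5.87 and 6.34 with gefitinib, against 4.47, 5.65 and 5.62. The part of these genes in the other results was not tested. The means of melanocyte, leukocyte and endothelial markers lay between 4.35 and 4.72 in all 5 arrays.

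Time could be matched only with single arrays. With 4 h and 8 h differences averaged, 10 genes passed, 6 higher and 4 lower with gefitinib (0.0506% of all genes). ADGRG2 (1.29), IL1A (-1.50), AMPD2 (-0.60), RAB4B (-0.76) and LSM10 (-0.47) did so with both gefitinib arrays outside the starved range. ADGRG2 and RAB4B (3.25 and 3.14 with gefitinib, 3.88, 4.09 and 3.92 in starved cells) were at low signal. AMPD2, an AMP deaminase, had 6.77 and 6.62 with gefitinib, against 7.02, 7.13 and 7.51 in starved cells. NBEAL1 (0.63) and RAB11B (0.76) lay outside that range too. In NBEAL1, RAB11B, BTBD7, CBL and CSGALNACT1 the starved 8 h array, which also stood apart in the control probe sets, was far below the starved 4 h arrays. RAB11B, a GTPase of recycling endosomes, had 7.31 and 7.32 with gefitinib, against 7.25, 7.20 and 5.89 in starved cells. CBL, the ubiquitin ligase that sends EGFR to degradation, had 10.25 and 10.04 with gefitinib, against 10.16, 10.06 and 8.95. At 8 h alone, with 1 array in each group, 30 genes passed (0.152%), and at 4 h alone, with 1 gefitinib array, 0 did. A lone array is assumed there to vary like the other groups, and the starved 8 h array is the one apart in its control probe sets. The 8 h and 4 h differences themselves differed for 2 genes (0.0101%), SLC3A1 and CSGALNACT1, and for 0 genes without either starved 4 h array.

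Gefitinib was also given in serum. There the comparison is with serum alone, so its count of genes is not set against that over starved cells. In 2 arrays with serum and gefitinib against 2 with serum, which share no array with the comparison above, 145 genes rose (0.733%) and 163 fell (0.824%). The 145 had a median difference of 0.20 with EGF and gefitinib over starved cells, with 50 above every starved array (34.5%, against 7.34% of all genes). The 163 had a median of -0.16, with 40 below (24.5%, against 13.7%). DUSP6 had 7.87 and 7.46 with serum and gefitinib, against 10.55 and 10.59 with serum alone. It thus reached levels below both the gefitinib arrays with EGF (9.45 and 9.70) and the starved arrays. DUSP4 had 7.30 and 6.72 against 10.08 and 9.70, and SPRY4 4.94 and 4.44 against 7.23 and 7.22. FBXO32 had 8.08 and 8.97 with serum and gefitinib, against 4.97 and 5.80 with serum alone.

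The difference between the gefitinib comparison with EGF and that in serum was tested gene by gene. It passed for 18 genes (0.0910%), 15 with a higher (0.0759%) and 3 with a lower value (0.0152%) in the comparison with EGF. The count rested on single arrays, with 0 genes without the serum 4 h array or the gefitinib with EGF 8 h array and 44 without the serum 8 h array. DUSP4 (2.64), DUSP6 (2.48), SPRY4 (2.14), TGFA (1.39), EGR1 (1.55), TNFRSF10A (1.61) and GPAT3 (1.85) were among the 15. The 3 were MTUS1 (-1.20), EFS (-1.04) and RAB4B (-1.41). The references of the 2 comparisons differ, starved cells in the one and cells in serum in the other. For FBXO32 (adjusted p = 0.199), IL1A (0.995) and ADGRG2 (0.994) the difference did not pass. ADGRG2 rose by 1.09 in serum, to 4.41 and 5.04 with gefitinib, against 3.45 and 3.83, and IL1A fell by 1.55, to 6.11 and 5.50, against 6.87 and 7.84.

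With EGF at 4 h, U1026 (an inhibitor of the ERK kinase MEK, as labelled) and LY294002 (a PI3K inhibitor) had 1 array each, so their values carry no test, and both arrays share the KRT15 and KRT1 levels of starved 4 h replicate 1. DUSP6 was 9.45 with gefitinib, 10.23 with U1026 and 11.26 with LY294002, against 9.22 and 10.21 in the starved 4 h arrays. EGR1 was 13.29 with gefitinib, 11.95 with U1026 and 13.69 with LY294002, against 13.63 in both starved 4 h arrays. FBXO32 was 8.77 with gefitinib, 7.97 with U1026 and 8.02 with LY294002, against 8.29 and 7.42. IL1A was 5.91 with gefitinib, 8.68 with U1026 and 7.65 with LY294002, against 7.17 and 8.04. HBEGF was 7.54 with gefitinib, 8.88 with U1026 and 9.5 with LY294002, against 7.36 and 8.15. Of the 3 inhibitor arrays, the gefitinib array was thus the lowest for DUSP6, IL1A and HBEGF, and the U1026 array for EGR1.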

How the data were processed

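The deposited table holds log2 expression values of 54675 probe sets, which the authors made with fRMA and from which they subtracted a processing-date effect fitted with limma together with condition; the software versions and the probe annotation used are not given in the sources used here. Differences within 1 date are not changed by that subtraction. The labels name Qiagen RNeasy extraction and GeneChip One-Cycle labelling. A supplementary sheet of the study names other kits for batch 6. Of the probe sets 41097 have 1 gene symbol, 1801 several and 11777 none, and 41043 of the first matched RefSeq by Entrez ID. For each of 19775 genes the probe set with the highest mean over 58 arrays was kept.

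One mean per condition and date (30 in all, 28 residual degrees of freedom) was fitted with limma 3.58.1 in R 4.3.3, and p-values were adjusted over all genes (Benjamini-Hochberg, threshold 0.05). The number of arrays limits the precision. Members and the 27 gene lists were chosen with earlier results of these data known. The named genes rule took the 15 largest rises and falls past the threshold, up to 4 members of each list past it, EGFR by all probe sets, and genes that lose a call without an array. As no gene passed, list members are given as values that did not pass, and others were chosen after their values were seen. Lists are described by counts and medians. Alternatives were other fits, normalizations, filters, probe set choices, matched times and leaving out each array. The fit was tested on simulated data. Arrays of the same date, time and replicate number deviated together for EGF over starved cells in batch 6 (correlations of 0.254 to 0.54 over 3 pairs). On the other dates the 4 pairs gave 0.149 in batch 2 and 0.635 in batch 3, necessarily the same for both pairs of a date. The pairs of batch 2 also differ in time (4 h and 8 h). The comparisons were therefore also fitted with the pairs as a replicate block.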

Additional observations from a re-analysis of the deposited data

Results flagged for a closer look

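Of the genes named, 6 had a HaCaT-EGFR starved array far from the other 6 over all dates (gap over range above 0.568), and chance flags about 1 in 20 groups, or about 6 of the 118 genes examined. In batch 6, the 8 h array was low for BTBD7 (9.48, others 10.18 to 10.47) and MYOT (3.27, others 4.21 to 4.87), and 4 h replicate 1 was low for DUSP4 (7.61, others 8.53 to 9.07). On other dates, 1 starved array was low for MMP13 (5.1, others 5.77 to 6.18), and 1 for both KRT5 (11.51, others 12.17 to 12.66) and KRT14 (11.53, others 12.37 to 12.92).

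The gefitinib differences with EGF and in serum themselves differed (limma interaction) for DUSP4 (2.64), DUSP6 (2.48), IL13RA2 (3.06), GJB2 (2.46), TNS4 (2.32), SPRY4 (2.14), CAPRIN2 (1.87), GPAT3 (1.85), TNFRSF10A (1.61), EGR1 (1.55), TGFA (1.39), ST3GAL6 (1.29), PTPN12 (1.18), PLEK2 (1.10) and SYNJ2 (1.04), and in the lower direction for RAB4B (-1.41), MTUS1 (-1.20) and EFS (-1.04). GJB2, a gap junction protein, stood 0.40 above starved cells with EGF and gefitinib and fell by 2.06 in serum. The 8 h and 4 h differences from starved cells differed for SLC3A1 (2.01), an amino acid transporter subunit, and CSGALNACT1 (1.96). Both rest on the starved 8 h array, which read 5.36 for SLC3A1 and 4.36 for CSGALNACT1, against 7.12 and 7.17, and 6.08 and 6.20, with gefitinib.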

How the results depend on the processing

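The count of 0 genes over starved cells became 10 with times matched, 1 (ADGRG2, adjusted p = 0.0224) with quantile normalization, 2 (ADGRG2 and KIAA0825) with the probe set of largest SD and 1 (KIAA0825) with all probe sets, and was 0 in each of the other 12 settings beside the replicate block, leaving out any of the 5 arrays included (520 to 1500 genes at an unadjusted p under 0.05). KIAA0825 had 3.75 and 4.13 with gefitinib, against 2.98, 2.74 and 3.02 in starved cells, in 1 of 2 probe sets. With arrays of the same date, time and number as a replicate block, also chosen after seeing the data, 1 gene passed over starved cells (ESRRA, -0.54, adjusted p = 0.0377), 83 with EGF in batch 6, 936 with EGF on other dates, 295 with gefitinib in serum and 58 with gefitinib over EGF alone. The 2 pairs over starved cells (starved 4 h replicate 2 left out) did not deviate together (correlation -0.033), so they share only a number. EGFR turned to -0.19 with the probe set of largest SD, against 0.20 with the brightest. The former was at low signal (4.25 to 4.91) with an SE of 0.45. CSGALNACT1 turned to -0.065 without starved 8 h replicate 1 (up to 0.863 without another array). With starved 4 h replicate 2 as sole reference it turned to -0.055 and SUOX to 0.014. That reference was chosen after seeing the data. Other named genes also crossed 0 over the settings, among them DUSP4 (-0.71 to 0.02), HAS2 (-0.68 to 0.17) and CXCL3 (-0.43 to 0.05). TSC22D3 (-0.23 to 0.78) and KRT15 (-0.63 to 0.55) did so too. The medians of ERK-induced genes ran between -0.44 and -0.10, of FOXO-induced genes between 0.24 and 0.54 and of NF-kB targets between -0.27 and -0.19, with no turn in sign.

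Additive terms for condition and date gave 1741 genes with EGF over starved cells, against 768 on other dates and 51 in batch 6, and 358 with gefitinib over EGF alone, against 82. Keeping genes with a mean log2 of at least 6 gave 119 in batch 6 and 240 over EGF alone. Leaving out 1 array gave 198 (without starved 4 h replicate 2 of batch 3) to 922 genes with EGF on other dates, 30 (without the serum and gefitinib 8 h array) to 332 with gefitinib in serum, 2 (without starved 4 h replicate 1) to 132 with EGF in batch 6 and 0 to 65 with gefitinib over EGF alone (0 without the gefitinib 4 h array, 1308 genes at an unadjusted p under 0.05, and 6 without the 8 h array). Alternatives for the interactions were chosen after seeing the data: the 18 genes became 7 with arrays centred on their medians and 0 to 44 without 1 array, and the 2 genes for time became 0 with centring and 0 to 0 without either starved 4 h array. The cause of these shifts was not tested. With 2 arrays against 3, a change that lies within the interval given for a gene is not excluded.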

Other observations

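LINC00973, a long noncoding RNA, had 3.77 and 3.18 with EGF and gefitinib, against 3.46, 5.03 and 4.88 in starved cells and 5.72 to 6.09 with EGF alone, and 2.93 and 2.89 with serum and gefitinib, against 5.24 and 5.94 with serum alone. It fell against EGF alone (-2.45, limma adjusted p = 0.012) and in serum (-2.68, adjusted p = 0.0053), and not against starved cells (-0.98). MMP13, a collagenase, had 7.12 and 7.14 with EGF and gefitinib, against 5.77, 5.94 and 6.09 in starved cells and 5.59 to 6.08 with EGF alone, a difference from starved cells of 1.19 ± 0.53 (SE) that did not pass.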
